A study of Capsicum annuum and Capsicum chinense and Capsicum annuum var. glabriusculum with 33 samples.

Results

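The genes described here are the 142 of 31426 listed pepper genes that were near silent in the mature green fruit of 1 inbred line, ZJ9, and detected in the same stage of 8 other Capsicum annuum lines. The members were chosen by these measured values themselves: a gene was taken when its deposited value was under 0.1 RPKM (reads scaled to gene length and to the total reads of the library) in ZJ9, at 0.1 RPKM or more in each of the other 8 lines and at 10 RPKM or more in at least 1 of them. The other 8 lines alone admitted 13772 genes, of which the 142 were 1.03%. The remaining 13630 genes are the background against which the members are read below. They were not matched to the members in level or in range over the lines. The genes carry ID numbers of the Capana series, and no ID could be paired with a gene name here, so no function is given for any of them.

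Pepper fruit is a berry that grows while green, stops growing at the mature green stage, turns colour at the stage called breaker and then ripens. At ripening its chloroplasts become chromoplasts, chlorophyll is lost and carotenoid pigments build up, and many genes switch on or off between the green and the red fruit. Fruit of different lines can carry the same stage label at different points of this course. ZJ9 has 1 library in the series, so the line, the fruit sampled and the library cannot be told apart.

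The series holds 33 RNA-seq libraries of poly(A) RNA from inbred lines grown in a greenhouse. The 9 mature green C. annuum libraries are those of ZJ9 (labelled Zunla 9), Zunla 1 (ZL1), ZJ32, ZJ49, 11c255, 11c320, G16, SP3 and T803; the library titled SP3 carries the line label SP163. Zunla 1 also has fruit of 0 to 1, 1 to 3, 3 to 4 and 4 to 5 cm, breaker fruit, fruit 3, 5 and 7 days after breaker, and root, stem, leaf, closed bud and open flower. HYL is a Capsicum chinense line, with seedling root, stem and leaf and with fruit that was mature green or 5 days past breaker. Chiltepin is the wild C. annuum var. glabriusculum, with leaves mixed from 4 phases, a mix of buds and open flowers, and breaker fruit. ZJ49 and ZJ7 each have 1 library of fruit 5 days after breaker. No treatment is labelled, and every line, organ and stage is 1 library, so the tests below use stages, organs or lines in the place of replicates and their p-values measure the spread between those libraries, not between plants.

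The libraries fell into 25 shallower ones of 12082615 to 15173619 reads and 8 deeper ones of 24987694 to 29938875 reads, counted over the genes whose whole reads could be recovered from the RPKM values. ZJ9, at 14089302 reads, was one of the shallower libraries; 11c255, 11c320, G16, SP3 and T803 were deeper. The ZJ9 library also stood apart in its likeness to the Zunla 1 fruit stages. Over 25865 genes that are not members, its Spearman's rho was 0.909 with fruit of 0 to 1 cm, 0.926 with 1 to 3 cm, 0.924 with 3 to 4 cm and 0.914 with 4 to 5 cm, against 0.843 with mature green Zunla 1 fruit. It was closest to fruit of 1 to 3 cm, and closer to the 2 smallest stages than any of the other 8 mature green libraries. Of the 9 libraries, ZJ9 also had the highest rho with Zunla 1 stem (0.846), leaf (0.831), root (0.755) and open flower (0.702). With bud it did not (0.669, against 0.677 for 11c255). Its higher likeness was thus not particular to small fruit. SP3 was closest to mature green fruit at 0.915, and ZJ49 to fruit 3 days after breaker at 0.945. ZJ32, 11c255, 11c320, G16 and T803 were closest to fruit of 4 to 5 cm. The part of this likeness in the silence of the 142 genes was not tested.

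**Figure D1:**
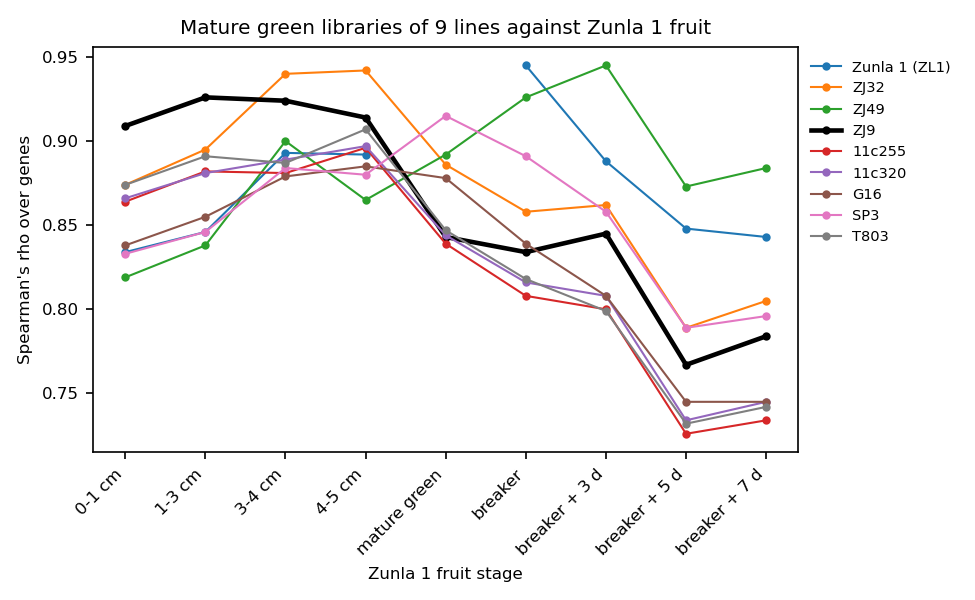
Spearman's rho over 25865 genes that are not members (vertical axis, which does not start at 0) between the mature green library of each of 9 lines (coloured lines, ZJ9 in thick black) and each Zunla 1 fruit stage (horizontal axis). ZJ9 lies above the other lines at the 2 smallest stages, at 0.909 and 0.926; the point of Zunla 1 against itself is left out.

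The values in the 9 mature green libraries chose the members and are given as a description. In ZJ9, 116 of the 142 genes had no read, 14 had 1 read, 9 had 2, 2 had 3 and 1 had 4. These came to 42 reads in all, whereas the other 32 libraries held between 6357 and 156061 reads over the same genes. A single read in ZJ9 was worth 0.0197 to 0.228 RPKM depending on gene length, with a median of 0.0778 RPKM. Had ZJ9 expressed each gene at the level of its lowest other line, 107 members would have been expected at 3 reads or more and 35 at fewer, so for those 35 silence was not detectable at this depth against the lowest line. At the median of the other 8 lines, 135 members would have had 10 reads or more. These floors and expected reads cover counting error only, and a level up to that of 3 reads cannot be told from 0.

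For 115 members a lower bound on the difference could be set, by taking 3 reads as the level in ZJ9. The median of the other 8 lines was then at least 14.3-fold higher for the middle gene of the 115, and at least 10-fold higher for 68 of them. The highest bound was at least 442-fold, for Capana06g003078. At the edge of the rule, Capana08g000052 and Capana07g000348 were just inside at 0.0987 RPKM in ZJ9, which was 2 reads and 1 read. Capana01g003278 at 0.105 RPKM and Capana04g001540 at 0.119 RPKM were just outside, at 2 and 4 reads.

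The same rule applied with another line in the place of ZJ9 found 162 genes for ZJ49, 48 for Zunla 1 and 27 for ZJ32. It found 20 for T803, 17 for SP3, 10 each for 11c255 and 11c320, and 7 for G16. The last 5 lines are the deeper libraries, in which 1 read is worth less, so their counts are not on the same footing as that of ZJ9; Zunla 1, ZJ32 and ZJ49 were sequenced to 1.00, 0.976 and 1.06 times the depth of ZJ9.

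In the other 8 lines the members were far from evenly expressed. Their median level was 16.1 RPKM in Zunla 1, 14.0 in SP3 and 10.1 in G16, but 3.55 in ZJ32, 2.66 in T803, 2.46 in ZJ49, 1.93 in 11c320 and 1.91 in 11c255. Zunla 1, SP3 and G16 were thus the lines with high levels, and the background genes showed no such split, with medians of 15.9 to 23.1 RPKM over the 8 lines. The highest of the 8 lines exceeded the lowest by a median of 57.1-fold over the members and 3.27-fold over the background. A range of 10-fold or more was found for 135 members (95.1%) and for 17.6% of the background. The highest of the 8 was Zunla 1 for 60 members (42.3%, against 6.41% of the background), SP3 for 26 (18.3%, against 5.47%) and G16 for 20 (14.1%, against 9.46%). The lowest was ZJ49 for 44 (31.0%, against 16.5%), and 11c255 and 11c320 for 28 each (19.7%, against 10.1% and 5.25%). At least 1 of the 8 lines was under 1 RPKM for 93 members (65.5%, against 6.59%), and all 8 were at 10 RPKM or more for 4 members (2.82%, against 51.6%).

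The 8 members with the highest median over the other lines show the kinds of pattern in the set. Capana03g001200 had no read in ZJ9 and ran from 24.98 RPKM in ZJ49 to 1772 in Zunla 1, with 1689 in SP3 and 729.8 in G16 and a median of 181 over the 8 lines. Its level in ZJ9 was therefore below every other line, the median of which was at least 363-fold higher. Capana11g001238 was the even one of the 8. It had no read in ZJ9 and between 48.1 RPKM in SP3 and 138 RPKM in G16 elsewhere, and at its lowest level ZJ9 would have had 270 reads. Capana07g002428, with no read in ZJ9, ranged from 13.6 RPKM in 11c255 to 524 in Zunla 1, and Capana00g002763, also with no read, from 5.83 in T803 to 659.6 in Zunla 1. Both were high in Zunla 1, SP3, ZJ49 and G16 and low in 11c255, 11c320 and T803. Capana06g003078 was at 451 RPKM in G16, 314 in Zunla 1 and 3.35 in ZJ49. Capana09g002337 went the other way, at 172 RPKM in SP3, 165 in T803, 132 in 11c255 and 116 in 11c320 but 9.10 in Zunla 1 and 0.966 in ZJ32. Capana11g000613 had 1 read in ZJ9 and 7.198 to 89.4 RPKM in the other lines, lowest in ZJ49. Capana00g001068 had 1 read in ZJ9, 4.07 RPKM in ZJ49 and 591.8 in G16, where it stood far above the next line, SP3, at 127.

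**Figure D2:**
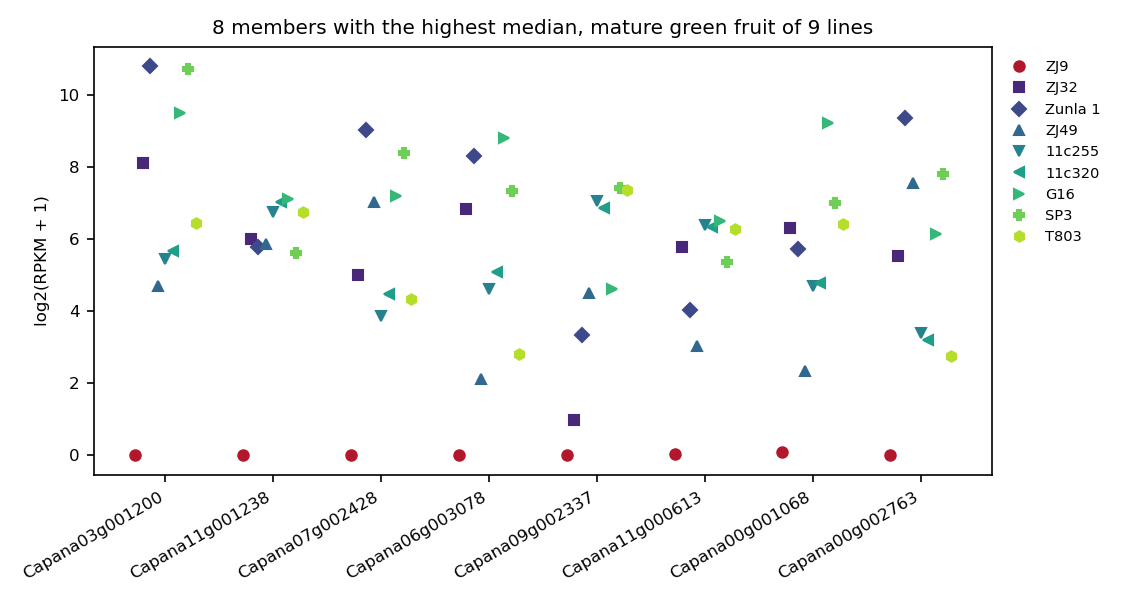
Levels as log2(RPKM + 1) (vertical axis) of the 8 members with the highest median over the other lines (horizontal axis), with 1 symbol for the single library of each of 9 mature green lines. The ZJ9 symbols lie at or next to 0 for all 8 genes, as the rule requires; Capana11g001238 spans 48.1 to 138 RPKM over the other lines and Capana03g001200 spans 24.98 to 1772 RPKM.

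The Zunla 1 libraries other than mature green were not used by the rule. Across them the members were low in small fruit, came up late in fruit growth and were low again in most other organs. Their median level was 0.136 RPKM in fruit of 0 to 1 cm and 0.178 in fruit of 1 to 3 cm, then 2.16 at 3 to 4 cm and 2.41 at 4 to 5 cm. It was 10.8 RPKM at breaker, 3.08 at 3 days after breaker, 5.22 at 5 days and 2.62 at 7 days. The background medians in the same fruit libraries lay between 14.3 and 22.9 RPKM. In the organs the members' median was 0.325 RPKM in root, 0.0510 in stem, 0.207 in leaf, 0.480 in bud and 0.326 in open flower. The level was therefore highest at breaker, which is the stage next to the mature green library that the rule did use.

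**Figure D3:**
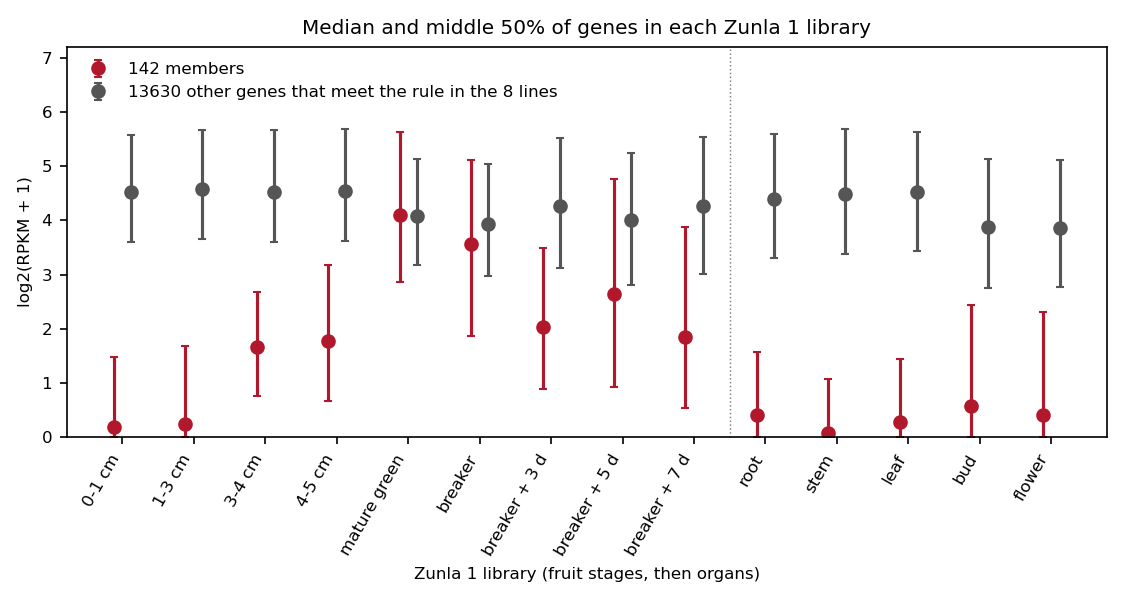
Median (points) and middle 50% of genes (bars, which show the spread over genes and not an error) as log2(RPKM + 1) in each of 14 Zunla 1 libraries, for the 142 members (red) and the 13630 background genes (grey). The members' median rises from 0.136 RPKM in the smallest fruit to 16.1 at mature green, the 1 library here that the rule used, and 10.8 at breaker, while the background stays between 13.5 and 22.9 RPKM.

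Many members that were silent in ZJ9 fruit were also silent in small Zunla 1 fruit. Of the 142, 68 (47.9%) were under 0.1 RPKM in fruit of 0 to 1 cm, where 0.734% of the background was. In fruit of 1 to 3 cm there were 62 (43.7%) against 0.514%, in fruit of 3 to 4 cm 11 against 0.103%, and at breaker 4 against 0.858%. In stem 75 members were under 0.1 RPKM, against 1.25%. The shares dropped between 3 cm and 4 cm of fruit length, and after that they stayed at or under 13.4% in Zunla 1 fruit. The ZJ9 library was itself most like the fruit of 1 to 3 cm by the correlations above, and these values are given side by side without a test of one against the other. The background was more highly expressed, with a median of line medians of 19.88 RPKM against 3.975 for the members. The part of this in the shares was not tested. Among the sets that the rule gave for other lines, the share at 0 to 1 cm ran from 0% for SP3 (17 genes) to 40.0% for 11c255 (10 genes). It was 8.02% for ZJ49 (162 genes).

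**Figure D4:**
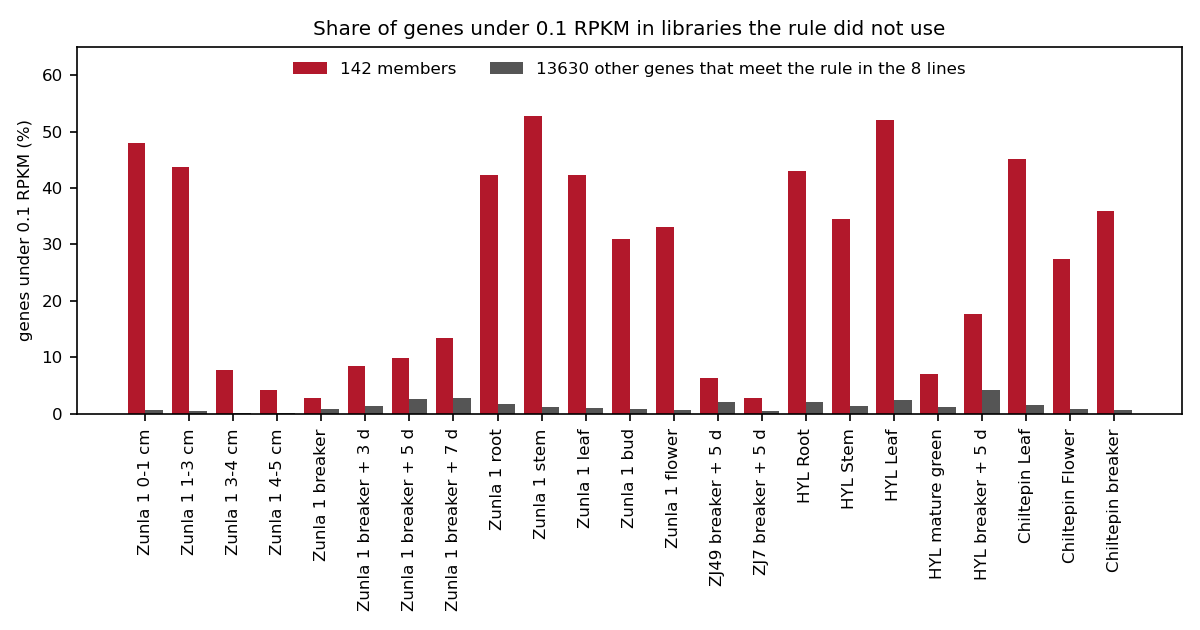
Percent of genes under 0.1 RPKM (vertical axis) in each of 23 libraries that the rule did not use (horizontal axis), for the 142 members (red) and the 13630 background genes (grey). The members' share is 47.9% in the smallest Zunla 1 fruit, 2.82% at breaker, 52.1% in HYL leaf and 35.9% in chiltepin breaker fruit, and the background is at or under 4.2% in each library.

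By their level in the 2 smallest Zunla 1 fruits the members form 3 groups. In 52 (36.6%) both libraries were under 0.1 RPKM, which held for 0.345% of the background, and their median was 1.67 RPKM at 3 to 4 cm, 1.44 at 4 to 5 cm and 20.1 at breaker. They were also at a median of 0 in root, stem and leaf. At the other end, 41 (28.9%) were at 1 RPKM or more in both, as were 97.0% of the background, with medians of 5.29 and 4.76 RPKM in the 2 small fruits, 5.96 at 4 to 5 cm and 4.03 at breaker. By the definition of this group, the silence of these 41 in ZJ9 was not shared by the 2 Zunla 1 libraries of fruit up to 3 cm. The remaining 49 lay between, with a median of 0.234 RPKM at 0 to 1 cm and 12.6 at breaker.

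**Figure D5:**
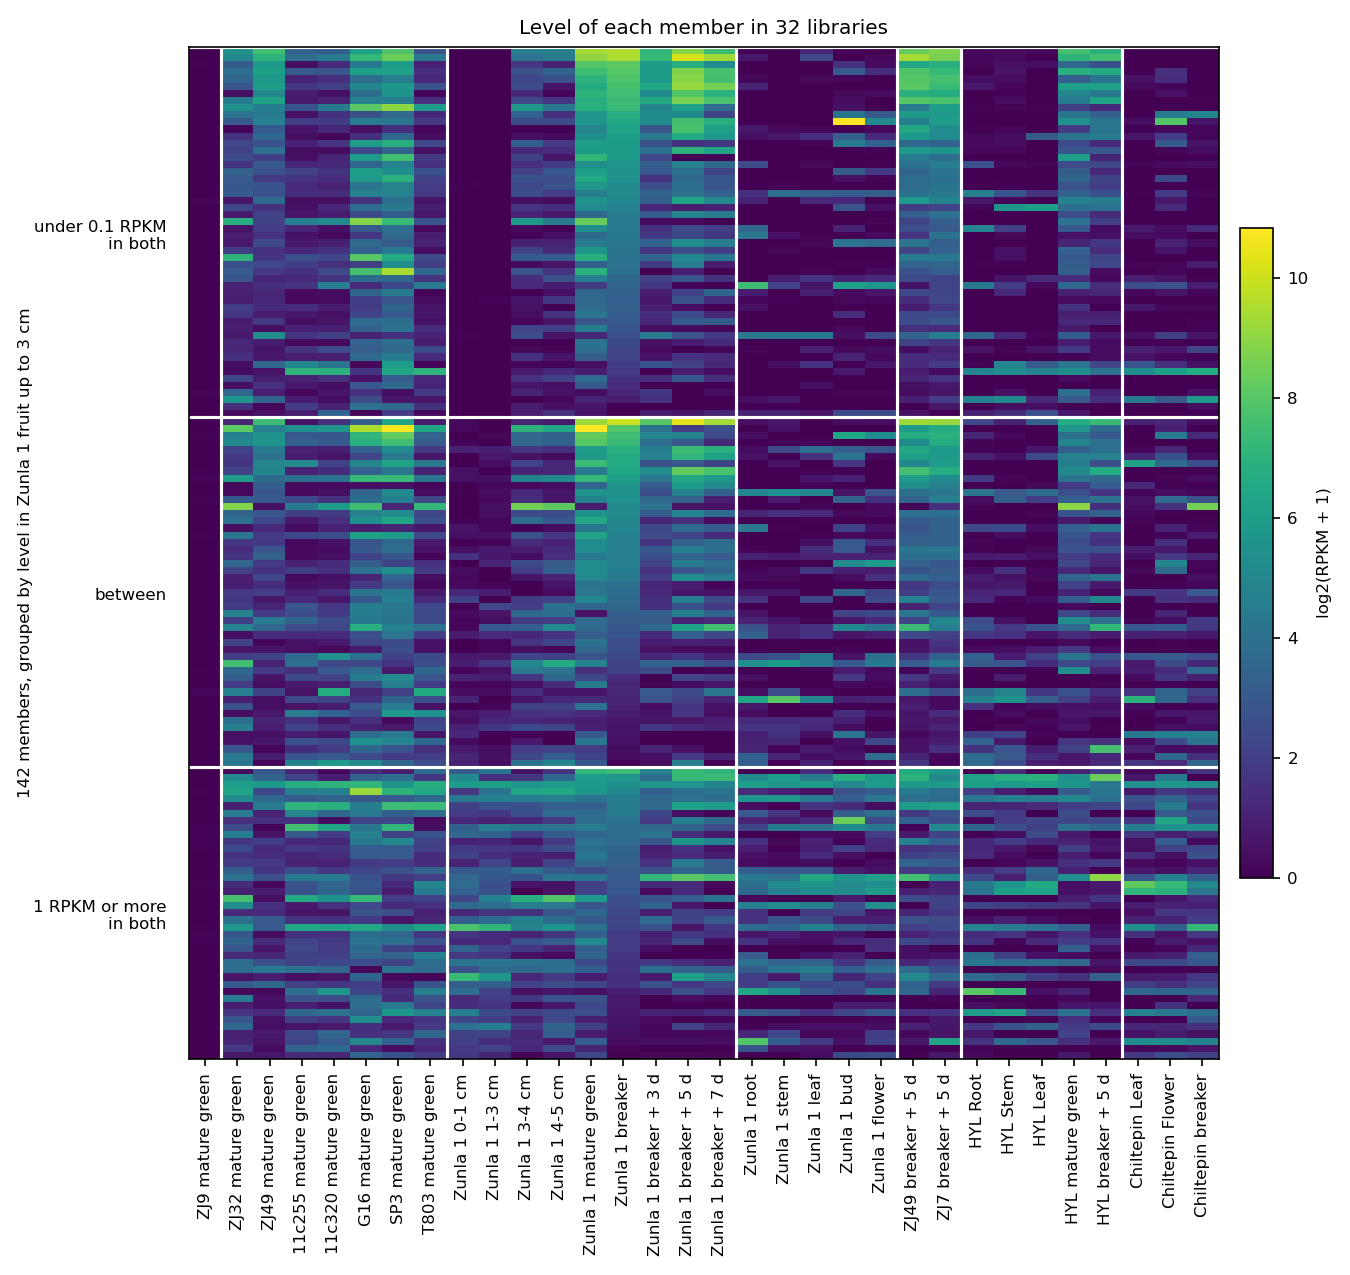
Level as log2(RPKM + 1) (colour) of each of the 142 members (rows) in 32 libraries (columns, with the unassigned library left out), with rows in 3 groups by their level in Zunla 1 fruit up to 3 cm and ordered within a group by the level at breaker. The 52 members of the upper block are dark in the 2 smallest fruits, as the grouping requires. They are also dark in root, stem and leaf and bright at breaker, where their median is 20.1 RPKM. The 41 members of the lower block are expressed in small fruit, again by the grouping, with medians of 5.29 and 4.76 RPKM.

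Among the 13 Zunla 1 libraries outside the rule, a fruit library was the highest for 119 members (83.8%), against 53.9% of the background. It was breaker for 50 (35.2%, against 2.22%) and fruit 5 days after breaker for 29 (20.4%, against 3.88%). In all 5 organs together, 15 members (10.6%) were under 0.1 RPKM, against 0.0587% of the background. The fruit bias was also put to limma's moderated test on log2(RPKM + 1), with Benjamini-Hochberg adjustment over all genes tested and a threshold of 0.05, for the 8 fruit libraries outside the rule against the 5 organs. Here 108 of the 142 members passed the filter, which asked for 1 RPKM in a number of libraries equal to the smaller arm. Of these, 7 were higher in fruit, where 1.37% of all genes tested were, and 2 were lower, where 2.7% were. A member could pass the filter through fruit libraries alone. With no filter, 2 of the 142 were higher and 2 lower, where 0.544% and 1.51% of all genes tested were. The 8 fruit stages differ widely among themselves, and single libraries moved the count of 9. Without stem 1 was higher and 2 were lower, where 0.818% and 1.86% of all genes tested were. Without bud it was 2 and 5 (1.01% and 3.43% of all genes), and without leaf 2 and 3 (1.37% and 2.2%). Without breaker (1.29% and 2.01%), root (1.46% and 2.79%) or flower (0.634% and 1.84%) it was 2 and 2. Without fruit 7 days after breaker 3 were higher and 2 lower (0.835% and 1.94%). Without fruit of 0 to 1 cm it was 11 and 3 (1.37% and 2.7%). The excess of higher over lower calls, which rests on few members, was not kept when any 1 of the 5 organs was left out. The median log2 difference was 1.04 over the 108 members and 0.10 over all genes tested. With no filter it was 0.98 over the 142 members, against 0.02. It was 0.959 to 1.295 over the members tested when 1 organ was left out. The rule had required each member to be detected in mature green fruit.

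Capana05g000171 was one of the 7. It stood at 3.90, 26.6, 113 and 234 RPKM in the 4 growing fruits and at 5.19, 6.08, 8.155 and 16.6 RPKM from breaker on, but at 0.745 in bud, 0.189 in root and 0 in stem, leaf and flower. Every fruit value lay above every organ value, with 51.7 ± 82.1 RPKM (SD, n = 8 stages) in fruit and 0.187 ± 0.323 (SD, n = 5 organs) elsewhere, a limma log2 difference of 4.11 (SE 0.86, adjusted p = 0.0172). Capana08g000052 was at 0.418 and 0.417 RPKM in the 2 smallest fruits and at 19.1 to 92.0 in the other fruit libraries, against 0 to 1.00 in the organs. The groups overlapped through the small fruits; the limma log2 difference was 3.89 (SE 0.99, adjusted p = 0.0431), and the call was lost with no filter and without any 1 library other than the 2 smallest fruits, with adjusted p from 0.0135 to 0.101 over 17 alternative limma fits. Capana10g001526 and Capana10g001527, which have consecutive ID numbers, were the 2 that fell. Capana10g001526 was at 0 to 9.61 RPKM in fruit and 11.6 to 59.5 in the organs, and Capana10g001527 at 0.181 to 12.8 and 13.9 to 48.7 RPKM. Neither overlapped between fruit and organs, and the limma log2 differences were -3.55 (SE 0.66, adjusted p = 0.00967) and -3.35 (SE 0.59, adjusted p = 0.00793).

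Ripening was compared as the 3 Zunla 1 libraries after breaker against the 4 of growing fruit, with mature green left out because the rule used it and breaker because it lies between. Of the 142 members, 117 passed the filter. Of these 41 rose in ripe fruit and 11 fell by limma's test, where 8.01% of all genes tested rose and 27.8% fell. The median log2 difference was 1.22 over the 117 members and -0.40 over all genes tested. Median-of-ratios scaling moved the median of all genes to -0.04, and the members then stood at 46 higher and 7 lower, where 14.5% of all genes tested were higher and 18.1% lower. A member could pass the filter through the 3 ripe libraries alone; over all 142 members with no filter, the median log2 difference was 0.64, against -0.20 over all genes. Without the library of 5 days after breaker it was 0.62 over the 128 members that then passed, against -0.35. Of these members 32 were higher and 8 lower, where 6.6% and 17.5% of all genes tested were.

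Capana09g000614 had the largest rise. It was at 0.191, 0, 1.124 and 0.705 RPKM in the 4 growing fruits, 1028 at breaker, and 256, 1380 and 648 RPKM at 3, 5 and 7 days after breaker. The means were 0.505 ± 0.509 (SD, n = 4) and 761 ± 571 RPKM (SD, n = 3), a log2 difference of 8.73 (SE 0.55, limma adjusted p = 0.00015). In mature green fruit it was near 1 RPKM in ZJ32, 11c255, 11c320 and T803, and at 592 in Zunla 1, 172 in ZJ49 and 84.9 in SP3. Capana00g002134 was at 0, 0, 4.70 and 0.561 RPKM in growing fruit and at 88.7, 579 and 378 after breaker, with a log2 difference of 7.29 (SE 0.80, limma adjusted p = 0.000835). Neither gene overlapped between the arms. Of the genes already described, Capana07g002428 and Capana00g002763 had 0 RPKM in both fruits up to 3 cm and 721 and 752.5 RPKM at breaker. Capana06g003078 and Capana03g001200 were different: both were at 0.176 RPKM or less in fruit up to 3 cm, at 55.2 and 128 RPKM at 3 to 4 cm, and by 7 days after breaker at 0 and 5.26 RPKM.

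The largest fall among the called members was that of Capana11g000613. It stood at 218, 135, 27.9 and 47.3 RPKM in the growing fruits and at 5.36, 0.488 and 2.41 RPKM after breaker, with no overlap and a limma log2 difference of -4.66 (SE 0.77, adjusted p = 0.00401). It was also at 10.1 to 26.5 RPKM in root, stem, leaf and bud. Capana06g001685 was at 12.3 to 23.3 RPKM in growing fruit and 10.2, 0.641 and 0 RPKM after breaker, a limma log2 difference of -2.73 (SE 0.76, adjusted p = 0.0272). Its call was lost in 8 of 13 alternative limma fits (adjusted p from 0.000665 to 0.137), among them those without the library of 5 or 7 days after breaker or without that of 1 to 3, 3 to 4 or 4 to 5 cm.

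A few members were expressed throughout Zunla 1. At 1 RPKM or more in all 13 libraries outside the rule there were 8 members (5.63%), against 82.9% of the background; these 8 were picked out after their values had been seen. Capana11g001238 was the most even, between 28.2 and 70.4 RPKM in those libraries, 22.0 to 69.5 in HYL, 38.7 to 51.7 in chiltepin and 54.7 and 60.2 in ripe ZJ49 and ZJ7. It was thus at 22.0 RPKM or more in every library outside ZJ9 and had no read in ZJ9. Capana00g003200 ran from 8.38 RPKM in bud to 54.7 in stem and was at 4.15 to 32.2 RPKM in HYL and chiltepin, also with no read in ZJ9. Capana11g002003 had its highest Zunla 1 values, 13.5 to 17.6 RPKM, in the 4 growing fruits and its lowest, 1.08, at 7 days after breaker. Capana08g000767 was at 5.73 to 18.2 RPKM in growing fruit and 134, 260 and 192 RPKM after breaker. Of the other 4, Capana00g002251 was low not only in ZJ9 but also at 0.151 RPKM in ZJ49 and 0.344 in T803, with 184 in 11c255. Capana01g000145 had its highest Zunla 1 level at 7 days after breaker, 166 RPKM. Capana09g002155 was at 0 to 0.247 RPKM in HYL, at 0 in all 3 chiltepin libraries and at 0.119 in G16, and Capana01g003097 was at 0 in all 5 HYL libraries.

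In HYL the members were low in the seedling organs and higher in fruit, as in Zunla 1. Their median was 0.179 RPKM in root, 0.300 in stem, 0.0890 in leaf, 4.06 in the mature green library and 1.54 in that of 5 days past breaker, where background medians were 11.0 to 22.0 RPKM. In leaf 74 members (52.1%) were under 0.1 RPKM, against 2.41% of the background. In mature green fruit there were 10 against 1.14%, and in ripe fruit 25 against 4.2%. Most members that were silent in ZJ9 mature green fruit were thus detected in that of this other species. Whether reads of HYL match the gene models as well as those of Zunla 1 was not tested.

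No read or only a trace was found in all 5 HYL libraries for 4 members, 2.82% against 0.528% of the background. Capana01g003097, Capana01g003573 and Capana00g000293 were at 0 in all 5, and Capana03g004563 was at 0 to 0.0949 RPKM. Capana01g003097 was at 1.72 to 8.94 RPKM throughout the Zunla 1 libraries outside the rule and at 1.81 to 3.76 RPKM in chiltepin, so that ZJ9 and HYL were both at 0 for it.

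HYL root, stem, leaf and fruit 5 days after breaker were compared with the same organs of Zunla 1, with the organ as a block; the HYL organs came from seedlings and those of Zunla 1 from plants in full bloom. Of the 142 members, 57 passed the filter, 1 was higher in HYL and 7 were lower by limma's test, where 1.45% and 3.22% of all genes tested were. The rule required each member to be detected in mature green fruit of Zunla 1 and asked nothing of HYL. A member could also pass the filter through the Zunla 1 libraries alone. With no filter, 1 of the 142 was higher and 7 were lower, where 0.542% and 1.52% of all genes tested were. Without the block 1 was higher and 3 were lower, where 0.527% and 1.79% of all genes tested were. Without stem or leaf of either line 1 was higher and 1 was lower. In those fits 0.207% to 0.252% of all genes tested were higher and 0.66% to 0.988% lower. Capana00g001676 was the one that was higher. It was at 28.4, 39.0, 26.6 and 16.1 RPKM in the 4 HYL libraries and at 0, 0, 0 and 0.905 in Zunla 1, a log2 difference of 4.54 (SE 0.43, limma adjusted p = 0.00318). Capana09g002155 was at 0, 0, 0.247 and 0.2001 RPKM in HYL and 8.26, 18.3, 22.5 and 9.84 in Zunla 1, a log2 difference of -3.72 (SE 0.35, limma adjusted p = 0.00318). For both genes the 2 lines did not overlap. Capana01g001053 was at 1.67 to 7.58 RPKM in HYL and 9.04 to 61.6 in Zunla 1, a log2 difference of -2.47 (SE 0.39, limma adjusted p = 0.016), and this call was lost without the block and without root, stem or leaf of either line (adjusted p from 0.00376 to 0.141 over 13 alternative limma fits).

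In chiltepin the members were low in fruit too. The median was 0.174 RPKM in leaf, 0.816 in the flower mix and 0.397 in breaker fruit, where that of Zunla 1 breaker fruit was 10.8. Under 0.1 RPKM were 64 members in leaf, against 1.5% of the background, and 51 (35.9%) in breaker fruit, against 0.609%. In all 3 libraries together 26 members (18.3%) were under 0.1 RPKM, against 0.367%. The chiltepin libraries are among the deeper ones, with more reads than those of Zunla 1. In breaker fruit of the wild pepper more than 1 in 3 members was thus near silent, and in Zunla 1 fruit with the same stage label 4 of 142 were. These counts are not on the same footing. The rule required each member to be detected in mature green fruit of Zunla 1, the stage next to breaker, and asked nothing of chiltepin. Capana03g004563 and Capana01g003573 were under 0.1 RPKM in all 8 HYL and chiltepin libraries.

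The chiltepin leaf, flower and breaker fruit libraries were compared with leaf, bud, flower and breaker fruit of Zunla 1, with the organ as a block. Of the 142 members 79 passed the filter, 5 were higher in chiltepin and 3 lower by limma's test, where 2.78% and 0.81% of all genes tested were. As with HYL, a member could pass the filter through Zunla 1 libraries alone, and the rule asked nothing of chiltepin. With no filter, 1 of the 142 was higher and 0 were lower, where 0.109% and 0.0141% of all genes tested were. The calls rested on few libraries. Without the block 2 were higher and 0 lower, where 0.408% and 0.124% of all genes tested were. Without the leaf library of either line, 0 members and 0 of all genes tested were called by limma. Without chiltepin flower 0 members were called, and 5 of all 21205 genes tested. The 0 in these fits is thus not particular to the members. At an unadjusted limma p under 0.05 there were 22 of 94 members without chiltepin leaf, where 3394 of all 21171 genes tested were. It was 36 of 92 without chiltepin flower (3374 of 21205 genes) and 23 of 72 without Zunla 1 leaf (3302 of 19485 genes). The share was thus higher among the members than among all genes in each of these fits. Without chiltepin breaker fruit 4 were higher and 1 was lower, where 1.77% and 0.824% of all genes tested were. Capana00g001676 was at 40.7, 69.0 and 104 RPKM in chiltepin and at 0, 0.680, 0 and 2.52 in Zunla 1, a log2 difference of 5.39 (SE 0.46, limma adjusted p = 0.00502). The call was lost without leaf of either line or without chiltepin flower (adjusted p from 0.00216 to 0.121 over 11 alternative limma fits). This comparison shares the Zunla 1 leaf library with that of HYL. Capana12g002409 was at 20.2, 7.17 and 59.2 RPKM in chiltepin and at 0, 0, 0 and 0.783 in Zunla 1, a log2 difference of 4.06 (SE 0.51, limma adjusted p = 0.0102), and lost the call without the same libraries, without the block and with no filter (limma adjusted p from 0.0085 to 0.151). Capana00g004870 and Capana01g000145 were lower in chiltepin, by log2 differences of -3.95 (SE 0.82, limma adjusted p = 0.0444) and -3.60 (SE 0.70, limma adjusted p = 0.0354), and lost the call in 8 and 9 of 11 alternative limma fits (adjusted p from 0.0224 to 0.238 and from 0.0158 to 0.229). For both this included leaving out leaf of either line, chiltepin flower or chiltepin breaker fruit, and for Capana01g000145 also Zunla 1 breaker fruit. Capana09g002155, at 0 in chiltepin, was the third called lower, with a log2 difference of -3.31 (SE 0.59, limma adjusted p = 0.0277). Capana00g004870 was at 0.105, 1.22 and 0 RPKM in chiltepin leaf, flower and breaker fruit and at 14.1, 8.60, 6.499 and 112 in Zunla 1.

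Capana00g001676 is a member whose level divided the lines into 2 sets. In mature green fruit it was at 129 RPKM in 11c255, 125 in 11c320, 80.6 in SP3 and 132 in T803, but at 2.13 in G16, 0.803 in Zunla 1, 0.506 in ZJ49, 0.275 in ZJ32 and 0 in ZJ9. In no Zunla 1 library was it above 2.52 RPKM, and ripe ZJ49 and ZJ7 were at 0.795 and 0.253. HYL and chiltepin were at 16.1 RPKM or more throughout. At the level of ZJ32, ZJ9 would have been expected to give 2.0 reads, so for this gene ZJ9 was not distinguishable from ZJ32.

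In ripe fruit of the other C. annuum lines most members were detected. The median was 5.05 RPKM in ZJ49 and 6.89 in ZJ7, and 131 members (92.3%) were at 0.1 RPKM or more in both, against 97.7% of the background. The 162 genes silent in ZJ49 mature green fruit alone had another course in Zunla 1: their median was 5.84 RPKM in fruit of 0 to 1 cm, where the 142 ZJ9 genes were at 0.136, and 0 in the 3 libraries after breaker, where the ZJ9 genes were at 3.08, 5.22 and 2.62. The 10 genes of the 11c255 set ran closer to the ZJ9 genes, at 0.331 RPKM in fruit of 0 to 1 cm, 7.34 at breaker and 15.8 at 5 days. In the sets of the remaining lines the median at 0 to 1 cm was 1.00 to 7.27 RPKM.

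The ID numbers of the members were spread over all 12 numbered chromosomes and the digits 00, which number no chromosome. With the digits 00 there were 21 members, 1.62% of the 1300 genes with those digits that met the rule in the other 8 lines, and 17 each on chromosomes 1 and 3. The lowest share was 0.428% on chromosome 4, with 4 members, and the highest of a numbered chromosome was 1.4% on chromosome 10, with 11 members, against 1.03% over all genes. The ID numbers follow the order of genes only as far as the series keeps to it, and no positions are given here.

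Close neighbours among the ID numbers were few. Another member lay within 10 ID numbers for 16 members (11.3%), which formed 8 pairs and no longer run. Of 954 genes within 10 ID numbers of a member that met the rule in the other 8 lines, 16 (1.68%) were members themselves, against 1.03% over all genes. Within 5 ID numbers the share was 2.83%, and within 50 it was 1.2%. For the ZJ49 set the share within 10 was 2.92% against 1.19% over all genes, with 30 of 162 genes near another, and for the Zunla 1 set of 48 genes none was near another. Most of the ZJ9 members thus stood alone.

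The 4 pairs with the highest levels differed in how alike their members were over 21 libraries, the 13 of Zunla 1 outside the rule and the 8 other mature green lines; each r is a description over libraries that share lines and organs. Capana10g001526 and Capana10g001527 ran together (Pearson's r of 0.98 on the log2 scale), and both were highest in chiltepin leaf, at 140.5 and 283 RPKM. In mature green fruit the pair was highest in T803, at 21.1 and 29.3 RPKM. Capana03g003759 and Capana03g003760 (r of 0.925) were both near 0 in the organs and in small fruit, at 86.7 and 47.2 RPKM at breaker and 296 and 58.7 RPKM 5 days after it. Capana01g000822 and Capana01g000828 (r of 0.826) were at 16.5 and 45.2 RPKM at breaker. Capana00g003197 and Capana00g003200 had opposite courses (r of -0.469): the first was at 0 RPKM in root and stem and 38.7 at 5 days after breaker, the second at 48.5 and 54.7 RPKM in root and stem and 16.02 at 5 days. Where neighbours are near-identical copies the counting may have split reads between them, so levels within a pair are uncertain.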

How the data were processed

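The authors deposited 1 table of RPKM values, with 31426 genes in 33 columns; per the labels' protocols it comes from poly(A) RNA, TruSeq libraries and paired HiSeq reads. The aligner, genome build, use of strand and treatment of read pairs were not given in the sources used here. All columns were mapped to samples and 0 were left unused; the library titled HYL-F-Dev6 but labelled Zunla 1 entered no comparison. None of the gene IDs (0) matched the reference table, so names and sequences are not given.

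Members and lists were chosen with earlier results of these data known. Whole reads were recovered from the smallest step of each gene's RPKM values (tolerance 0.01, genes above 0 in at least 10 libraries) for 25555 of 25556 genes and all 142 members; these genes held 93.0% to 98.4% of each library's summed RPKM. They give depths and floors only (floor 3 reads), since the step was chosen to make values whole. Tests used limma 3.58.1 in R 4.3.3 (lmFit, eBayes with trend, two-sided) on log2(RPKM + 1), which understates the change of low genes, over genes at 1 RPKM or more in as many libraries as the smaller arm. The fits and the read recovery were tested on simulated data. The organs named in the labels pair the libraries of HYL or chiltepin with those of Zunla 1 and served as the block. Genes were named by rule: the 8 highest medians over the other lines, the 4 ID pairs with the highest levels, the 2 largest rises and falls in each comparison (where as many were called) and the 2 genes on either side of the ZJ9 threshold; others are said to have been picked after their values were seen or illustrate a count. Alternatives changed the thresholds of the rule, the pseudocount, the filter, the scaling, the block, the arms and left out each library; 2 further definitions of the growing fruit arm were added after the data had been seen.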

Additional observations from a re-analysis of the deposited data

Results flagged for a closer look

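In 5 of 44 tests of a group for a single stray library, over 22 named members, the highest library lay far from the rest. About 1 in 20 groups is picked out by chance among unselected replicates of 1 condition. The groups here are different lines or stages, and the rule chose the members on the values of the lines. That rate therefore does not apply, and the 5 are given as a description. All 5 were among the 9 mature green lines, where each line is 1 library. Capana00g001068 was at 591.8 RPKM in G16, Capana00g002763 at 659.6 RPKM in Zunla 1, Capana00g003200 at 36.28 RPKM in ZJ32, Capana01g000822 at 38.83 RPKM in SP3 and Capana10g001527 at 29.3 RPKM in T803. The rule used these values and required a high level in at least 1 line.

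The library titled as HYL breaker fruit, whose other labels name Zunla 1, entered no comparison. The members' median there was 12.93 RPKM, and 6 members were under 0.1 RPKM; the median was 10.8 RPKM in the breaker fruit library titled Zunla 1. In the library with conflicting labels Capana00g001676 was at 31.3 RPKM, where the HYL libraries were at 16.1 to 40.9 and those of Zunla 1 at 2.52 or less. Capana09g002155 was at 0 RPKM, where the HYL libraries were at 0 to 0.247 and the 13 Zunla 1 libraries outside the rule at 2.04 to 22.5. The line of this library was not inferred from these values.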

How the results depend on the processing

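The number of members was 142; it was 74 when the other 8 lines had to reach 0.5 RPKM and 49 when they had to reach 1 RPKM. It ran from 134 to 183 when 1 of the other lines was left out, the highest without ZJ49, and stayed within 1.5 times under the other alternatives to the rule. For Zunla 1 fruit against organs, 9 members were called, where 1.37% of all genes tested were higher and 2.7% lower. With no filter 4 were called (0.544% and 1.51% of all genes). With mature green added 14 were called (1.96% and 3.8%), but the rule used that library and required each member to be detected in it. When 1 library was left out 3 to 14 were called (0.634% to 1.46% and 1.73% to 3.43%). For ripe against growing fruit, 52 were called, where 8.01% of all genes tested rose and 27.8% fell. With mature green, where the rule itself selected the members, added to the earlier arm 25 were called (6.15% and 15.6%). When 1 library was left out 40 to 54 were called (5.15% to 8.73% and 17.5% to 26.7%). With growing fruit limited to that up to 3 cm 74 were called (6.48% and 23.7%), and to that of 3 to 5 cm 46 (3.82% and 15.7%). For HYL against Zunla 1, 8 were called, where 1.45% of all genes tested were higher and 3.22% lower. With no replicate block for the organ pairing 4 were called (0.527% and 1.79%). When 1 library was left out it was 2 to 9 (0.207% to 2% and 0.66% to 3.04%). For chiltepin against Zunla 1, 8 were called, where 2.78% of all genes tested were higher and 0.81% lower. With no filter 1 was called (0.109% and 0.0141%) and with median-of-ratios scaling 4 (1.54% and 0.596%). With no replicate block 2 were called (0.408% and 0.124%), and 0 to 12 when 1 library was left out (0% to 4.31% and 0% to 1.58%). Among ID neighbours the share was 1.68% within 10 numbers and 2.83% within 5. The 15 named results gave 203 pairs of a result and an alternative setting, of which 52 lost the call and 0 changed direction. Named genes of the same comparison share their fits, so the 203 are not separate fits. The shares over all genes tested moved with the settings too, and the cause of these shifts was not tested. Depth limits the rule: 35 members would have had under 3 reads in ZJ9 at the level of their lowest other line.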
